A study of Homo sapiens with 36 samples.

Results

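Binding of tagged HIF-α at the genes of glucose uptake and upper glycolysis was followed in Cut&Run data from 786-O cells. The 9 genes were the glucose transporters SLC2A1 and SLC2A3, the hexokinases HK1 and HK2, the glucose-6-phosphate isomerase GPI, the phosphofructokinases PFKL and PFKP, and the bifunctional enzymes PFKFB3 and PFKFB4. They were chosen by name, from 20007 protein-coding genes, with earlier results of these data known. A peak was counted for a gene when its summit lay in the gene body or within 50 kb on either side. Peaks of the 18 anti-V5 lists that overlapped were joined into regions, and a region was kept when at least 2 libraries had a peak in it. These windows held 995 of the 213711 peaks and 82 of the 25783 regions.

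Cells take up glucose through facilitative transporters, and hexokinase traps it as glucose-6-phosphate. GPI turns this into fructose-6-phosphate, which phosphofructokinase commits to glycolysis, and the PFKFB enzymes set the level of fructose-2,6-bisphosphate, the strongest activator of phosphofructokinase. HIF-1α and HIF-2α each pair with HIF-1β and bind the hypoxia-response element (HRE), and genes of this pathway are textbook HIF targets, known above all for the switch to glycolysis in clear cell renal carcinoma.

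The study swapped domains between HIF-1α and HIF-2α to find which of them sets where the protein binds. The parental line, 786-O, comes from a human clear cell renal carcinoma. It has no functional VHL, which marks HIF-α for destruction when oxygen is present, so that its HIF-2α persists, and it has no functional HIF-1α. All lines were grown in medium with 4.5 g/L glucose, with no hypoxia or drug named in the labels. WT cells carried no tag. In the HIF-2α KIN line the V5 and Halo tags sit on endogenous HIF-2α, in 1 homozygous clone, A31. In 4 further lines a V5- and Halo-tagged protein was expressed stably in WT cells from the L30 promoter, and these cells also kept their untagged endogenous HIF-2α. The study describes selection of such stable lines with puromycin and their upkeep in selection medium. It describes no such step for WT cells or the KIN clone. The proteins were HIF-2α, HIF-1α, HIF-2α/1α (amino acids 1 to 365 of HIF-2α joined to 364 to 826 of HIF-1α) and HIF-1α/2α (amino acids 1 to 363 of HIF-1α joined to 366 to 870 of HIF-2α). The first name stands for the N-terminal stretch of structured domains, which bind DNA and HIF-1β (called DBD here), and the second for the C-terminal intrinsically disordered region (IDR). Each of the 6 lines had 3 anti-V5 libraries and 3 IgG libraries, 36 samples in all, and IgG entered only as the control against which the peaks were called.

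List length differed widely between libraries. WT replicates 1, 2 and 3 had 392, 9508 and 743 peaks, and the 15 tagged libraries had 3984 to 20808. Replicate 2 had the longest list in each of the 6 lines, and the labels do not say whether a replicate number marks a batch. WT replicate 2 stood apart from the other WT libraries and gave 18 of the 20 WT peaks in the windows of the 9 genes. Depth, inferred from the lists, was 0.241 to 0.302 fragments per base in WT and 0.253 to 0.593 in tagged libraries, and its part in the calls was not tested. Absence of a peak from a list is no evidence that the site was free of the protein. The labels do not say whether replicates were separate cultures, so that p-values measure only the spread between these libraries. The lists hold no expression values, so that the identity of the cells could not be checked by marker genes.

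For each gene the region called in most tagged libraries, with ties settled by the lowest median rank, is called its lead region. In 5 of the 9 lead regions the median summit lay within 1 kb of an annotated start of the gene. These 5 sites are shown first, because each holds the HRE core (ACGTG or GCGTG on either strand) within 50 bp of its summit. Each stretch is the median summit with 50 bases on either side, on the strand of the gene, with the core in capitals, except for GPI, where the summit lies in an annotated UTR and only 30 bases around the nearest core are given. All positions are on hg38.
HK1, chr10:69318685-69318785, plus strand: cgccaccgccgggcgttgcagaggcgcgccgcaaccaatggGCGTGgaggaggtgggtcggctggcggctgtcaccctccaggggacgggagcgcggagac
HK2, chr2:74834020-74834120, plus strand: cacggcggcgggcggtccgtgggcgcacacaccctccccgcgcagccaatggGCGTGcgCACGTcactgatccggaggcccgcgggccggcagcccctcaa
GPI, chr19:34359446-34359475, plus strand: ccaCACGCaCACGCGTGcgcattacccccg
PFKL, chr21:44300475-44300575, plus strand: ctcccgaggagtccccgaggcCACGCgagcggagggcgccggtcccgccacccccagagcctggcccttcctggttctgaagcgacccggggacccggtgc
PFKFB4, chr3:48557227-48557327, minus strand: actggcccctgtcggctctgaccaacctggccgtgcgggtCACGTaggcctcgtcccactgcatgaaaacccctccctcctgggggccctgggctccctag
HK2 holds a pair of cores, 1 on each strand, whose nearest centre is 4 bp from the summit. HK1, PFKFB4, PFKL and GPI have the nearest core at 7, 8, 27 and 47 bp. In GPI, 2 of the 3 cores overlap.

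The other 4 lead regions, at SLC2A1, SLC2A3, PFKP and PFKFB3, lay 4.07 kb or more from any start of their gene, and none of them held a core within 50 bp of the summit. They are given with 100 bases on either side of the summit, to show the letters near the summit. Capitals mark the HRE core or TGACTCA and TGAGTCA, each the reverse complement of the other, which are the letters bound by AP-1 and were searched after the sequences were seen.
SLC2A1, chr1:42962837-42963037, minus strand: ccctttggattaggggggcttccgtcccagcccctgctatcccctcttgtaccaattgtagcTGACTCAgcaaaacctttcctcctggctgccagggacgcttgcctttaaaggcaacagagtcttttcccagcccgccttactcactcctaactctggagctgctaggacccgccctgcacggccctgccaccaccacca
SLC2A3, chr12:7970785-7970985, minus strand: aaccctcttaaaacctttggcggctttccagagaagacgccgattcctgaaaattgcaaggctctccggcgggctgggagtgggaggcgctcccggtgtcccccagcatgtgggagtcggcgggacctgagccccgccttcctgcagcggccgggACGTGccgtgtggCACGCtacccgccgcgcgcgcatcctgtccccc
PFKP, chr10:3047201-3047401, plus strand: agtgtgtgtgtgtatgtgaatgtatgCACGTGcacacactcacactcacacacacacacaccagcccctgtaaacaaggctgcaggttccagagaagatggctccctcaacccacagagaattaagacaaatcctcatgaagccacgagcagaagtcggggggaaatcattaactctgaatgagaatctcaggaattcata
PFKFB3, chr10:6299442-6299642, plus strand: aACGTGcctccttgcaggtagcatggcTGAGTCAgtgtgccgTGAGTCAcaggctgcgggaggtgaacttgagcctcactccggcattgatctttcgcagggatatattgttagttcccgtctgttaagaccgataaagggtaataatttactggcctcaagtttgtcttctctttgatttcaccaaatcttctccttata
SLC2A1 has no HRE core in these 201 bases and has the AP-1 letters once. PFKFB3 has 1 HRE core and the AP-1 letters at 2 places. SLC2A3 has 2 HRE cores, and PFKP has CACGTG, which is a core on both strands. The nearest core to the summit was 133 bp away at SLC2A1, 57 bp at SLC2A3, 71 bp at PFKP and 97 bp at PFKFB3.

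Motif content differed by position over all regions. An HRE core within 50 bp of the summit was found in 24.5% of all 25783 regions, in 36.5% of the 7326 with a summit within 1 kb of a coding start and in 19.75% of the other 18457. For the AP-1 letters the shares were 8.29%, 2.36% and 10.6%. With 100 bases on either side, the window printed for the distal sites, they were 17.3%, 4.71% and 22.3%, and 3 of the 9 lead regions (SLC2A1, PFKFB3 and, near a start, GPI) and 13 of the 82 regions (15.85%) held them. Among the 1201 regions called in all 15 tagged and in no WT library, 49.2% of those near a start and 27.7% of the others had a core. In the windows of the 9 genes, 15 regions were called in this way, and 5 of them (33.3%, against 34.3% of all 1201) held a core. All 4 of these near a start had one, and 1 of the 11 others. Within 100 bp a core was found in 12 of the 15, against 69.4% of the 1201. In this wider window the lead regions near a start and away from it differed less, with a core in 5 of 5 and 3 of 4. Motif matches are a description, and no match says only that these letters are not in the window.

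Tagged HIF-α was compared with WT first. WT cells lack the tag, so that their peaks give the background of the antibody. At 8 of the 9 genes, all but HK1, a region was called in 15 of 15 tagged and in 0 of 3 WT libraries. Among all 20007 protein-coding genes 10.9% had such a region within 50 kb. Within 1 kb of a start, 4 of the 9 genes (HK2, GPI, PFKL and PFKFB4) had one, against 2.03% of all genes. These shares are a description with no test, since the 9 genes were chosen with earlier results of these data known. In Fisher's exact test of called against not called libraries, 15 of the 82 regions passed an adjusted p of 0.05 and were higher in tagged libraries, where 4.66% of all regions did. These are the regions with 15 against 0 calls, which share a p of 0.00123 and an adjusted p of 0.0263, the smallest that 15 against 3 libraries can give. The test thus cannot tell them apart. Without any 1 WT library no region passes, where the smallest p that 15 against 2 libraries can give is 0.00735. With the replicate number as a block no region passed either, where the smallest p that can be reached is 0.00463.

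The 82 regions were spread unevenly. PFKFB3 had 21, SLC2A1 13, PFKP 10, HK2 9, SLC2A3 and HK1 8 each, PFKFB4 6, PFKL 4 and GPI 3. Some of these have their summit within 1 kb of a start of a neighbouring gene. These neighbours are HKDC1 and TACR2 at HK1, PDCD2L at GPI, CFAP410 at PFKL and PITRM1 at PFKP. At PFKFB4 they are SHISA5, UCN2 and COL7A1. Of all 82, 21 were called in every tagged library, against a share of 6.67% over all regions. A further 4 were called in 14 tagged libraries, 33 in 6 to 13 and 24 in 2 to 5. A WT call was found at 13 regions, in WT replicate 2 each time, and at 1 of them, in SLC2A1, also in WT replicate 3.

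**Figure D1:**
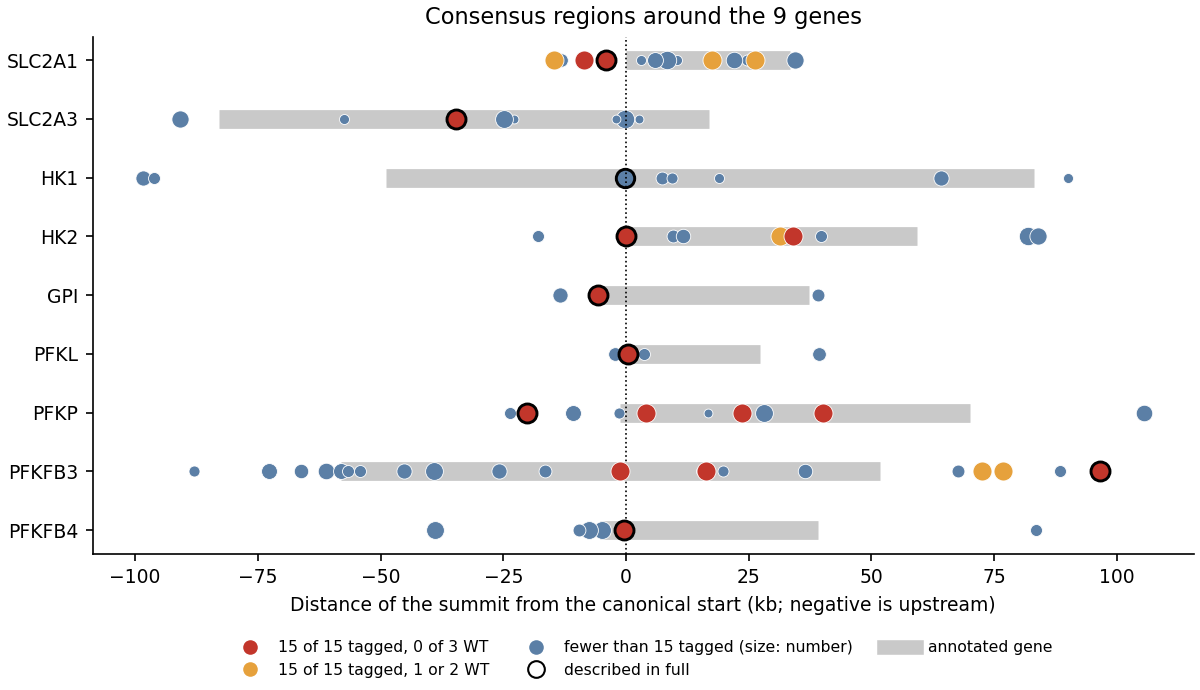
Each point is 1 of the 82 regions, placed by the distance in kb of its median summit from the canonical start of the gene (negative is upstream), with 1 row per gene. The lead regions of HK1, HK2, PFKL and PFKFB4 sit at the start, that of GPI at an earlier start, and those of SLC2A1, SLC2A3, PFKP and PFKFB3 lie 4.07 kb to 96.6 kb away.

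**Figure D2:**
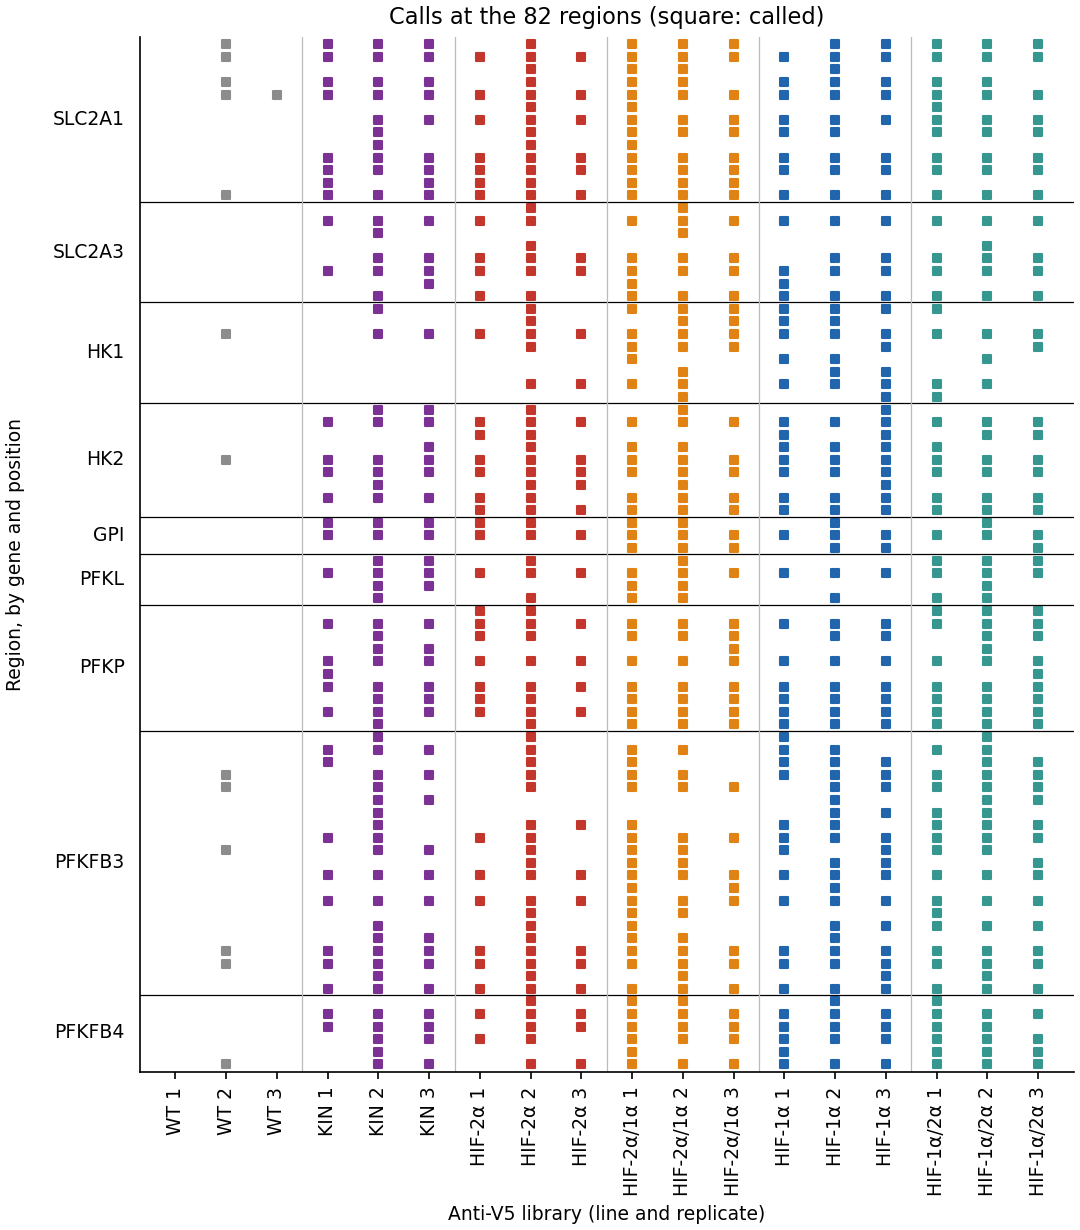
Calls at the 82 regions (rows, by gene and position) in the 18 anti-V5 libraries (columns, by line and replicate), with a square where a peak was called. Among the WT columns, replicate 2 holds 13 of the calls, replicate 3 holds 1 and replicate 1 none.

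SLC2A1 encodes GLUT1, the transporter of basal glucose uptake (chr1:42925353-42958893, minus strand). Its lead region, chr1:42956745-42964557, spans the start, but in all 15 tagged libraries the strongest summit lay 4031 to 4092 bp upstream of it, between coding genes. Fold enrichment over the local background at this summit was 22.0, 86.9 and 28.0 in KIN replicates 1 to 3, and 75.05, 55.4 and 23.4 in the HIF-2α line. It was 100.4, 50.9 and 40.2 with HIF-2α/1α, 30.5, 26.15 and 51.0 with HIF-1α, and 71.35, 82.7 and 49.0 with HIF-1α/2α. Lines overlapped, and replicates of 1 line differed by more than 2-fold in 3 of the 5 lines. The summit ranked between the top 0.401% and the top 5.77% of its own list by p-value, with a median of 1.18%.

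The SLC2A1 start itself carried a weaker summit. In 10 tagged libraries it was a peak of its own, 186 to 274 bp upstream of the start, with a fold of 8.03 to 32.7 (median 15.8) and a rank of 4.12% to 20.7%. In the other 5 libraries 1 broad peak covered both summits. Further upstream, chr1:42965985-42968023, 8.56 kb from the start, was also called in all 15 tagged and no WT libraries. Another 3 SLC2A1 regions were called in all tagged libraries but also in 1 or 2 WT libraries, so that they did not pass the test.

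SLC2A3 encodes GLUT3, a transporter with a high affinity for glucose (chr12:7919230-8019007, minus strand). Its lead region, chr12:7969720-7971735, lay 34.7 kb upstream of the canonical start, in an intron of a longer transcript. Fold at the summit was 51.5, 168.5 and 54.2 in KIN, 91.4, 123.2 and 37.7 with HIF-2α, and 122.0, 68.8 and 80.2 with HIF-2α/1α. It was 39.6, 76.0 and 42.4 with HIF-1α and 56.8, 166.4 and 41.3 with HIF-1α/2α. Every library placed it in the top 2.71% of its list, with a median rank of 0.904%, and the lines overlapped.

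At the SLC2A3 promoter the signal was lower. The region chr12:7935597-7936720, with its summit 224 bp upstream of the start, was called in 14 of 15 tagged libraries (all but HIF-2α replicate 3) and in no WT library, with an adjusted p of 0.0657 by Fisher's exact test. Its fold was 3.12 to 16.6, with a median of 8.73, against 68.8 at the upstream region, and its median rank was 32.8%. The window of SLC2A3 overlaps that of its close paralog SLC2A14, so that regions between them count for both.

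HK1 encodes the hexokinase found in most tissues (chr10:69269984-69401884, plus strand). It was the only one of the 9 genes with no region in all tagged libraries. Its lead region, chr10:69316399-69319872, has its summit 99 bp upstream of the nearest start and was called in 14 tagged libraries, all but KIN replicate 1, and in WT replicate 2. Fold was 9.84 and 9.40 in KIN replicates 2 and 3, 11.8, 28.2 and 11.2 with HIF-2α, and 12.3, 11.0 and 6.45 with HIF-2α/1α. It was 10.6, 52.0 and 26.0 with HIF-1α, 17.25, 20.7 and 19.3 with HIF-1α/2α, and 7.14 in WT replicate 2. The WT value lies inside the tagged range, and the call difference did not pass (Fisher's exact test, p = 0.0564, adjusted p = 0.301). KIN replicate 1 has the shortest tagged list, 3984 peaks. The part of list length in this missing call was not tested.

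HK2 encodes the inducible hexokinase of tumour cells (chr2:74834127-74893359, plus strand). Its lead region, chr2:74831913-74836999, is centred 57 bp upstream of the start. Fold was 18.8, 25.5 and 26.0 in KIN, 14.0, 59.3 and 11.55 with HIF-2α, and 31.2, 35.3 and 52.0 with HIF-2α/1α. It was 29.1, 82.9 and 35.5 with HIF-1α and 71.0, 20.6 and 45.4 with HIF-1α/2α, so that the lines overlapped.

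Rank within the list was also compared at the HK2 start. As a percent of list length it was 1.72%, 1.01% and 3.37% in the HIF-1α libraries, and 19.3%, 5.15% and 22.3% in the HIF-2α libraries. KIN gave 10.9%, 5.99% and 8.15%, HIF-2α/1α 5.475%, 5.99% and 3.44%, and HIF-1α/2α 1.73%, 5.08% and 2.83%. Lists differ in length, with 15058 to 20572 peaks for HIF-1α, 5906 to 20651 for HIF-2α and 3984 to 13193 for KIN, so that positions from the top are given too. The HK2 start stood at positions 259, 208 and 536 in the HIF-1α lists, 433.5, 790.5 and 596 in KIN and 1269.5, 1064 and 1319 in HIF-2α, where ties share a mean position. By position HIF-1α and KIN overlapped. HIF-1α and HIF-2α did not overlap on either scale, a pair of groups picked after the values were seen. The test of peak height at this region is given with the domain comparisons.

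Within HK2, chr2:74867508-74868563, with a summit 34.1 kb downstream of the start, was called in all 15 tagged and no WT libraries. A neighbour, chr2:74864329-74866991, was called in all tagged libraries and in WT replicate 2.

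GPI encodes the isomerase between hexokinase and phosphofructokinase (chr19:34359480-34402413, plus strand). Its single region in all tagged and no WT libraries, chr19:34358237-34360568, has its summit 27 bp past an annotated start, 5.69 kb upstream of the canonical one. Fold was 40.6, 78.0 and 74.3 in KIN, 30.1, 102.9 and 54.2 with HIF-2α, and 90.7, 81.1 and 60.6 with HIF-2α/1α. It was 61.6, 65.9 and 86.4 with HIF-1α and 142.6, 74.6 and 36.3 with HIF-1α/2α. With a median rank of 0.451% and a range of 0.206% to 3.41%, this was the best ranked of the 9 lead regions in the median, and its lines overlapped.

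PFKL encodes the liver form of phosphofructokinase (chr21:44300051-44327376, plus strand). The region chr21:44299262-44301899 has its summit in an intron, 472 bp past the canonical start. Fold was 18.2, 21.3 and 19.2 in KIN, 27.1, 32.8 and 15.8 with HIF-2α, and 46.1, 51.0 and 11.9 with HIF-2α/1α. It was 24.6, 45.4 and 15.7 with HIF-1α and 32.7, 31.0 and 21.15 with HIF-1α/2α. Of the 8 lead regions called in all tagged libraries, PFKL ranked weakest in the median, at 8.90%, with a range of 4.72% to 29.65%. In HIF-1α/2α replicate 3 the summit lay 731 bp from the median summit, and when regions were joined by summits PFKL no longer had a region in all tagged libraries.

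PFKP encodes the platelet form (chr10:3066333-3137718, plus strand), and it had most regions called in all tagged and no WT libraries, 4. The lead, chr10:3045058-3049323, lay 20.25 kb upstream of the canonical start. Fold was 83.6, 124.1 and 38.2 in KIN, 19.1, 105.6 and 32.6 with HIF-2α, and 51.2, 34.7 and 67.5 with HIF-2α/1α. It was 35.9, 37.5 and 58.6 with HIF-1α and 51.75, 109.3 and 27.1 with HIF-1α/2α. Lines overlapped, and the median rank was 1.66%.

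The other 3 regions of PFKP lay 4.16 kb (chr10:3067525-3072350), 23.7 kb (chr10:3089458-3092143) and 40.1 kb (chr10:3106660-3108110) downstream of the start. The second had a median rank of 1.79%, close to that of the lead. The first of the 3 also spans the canonical start. Its strongest summits had a fold of 4.41 to 18.5, with a median of 9.69, and 4 tagged libraries had a peak with a summit 100 to 253 bp past that start, with a fold of 7.29 to 9.33. At an alternative start, chr10:3065780-3066807 was called in 4 tagged libraries, with a fold of 4.18 to 5.41. The median fold at the lead region was 51.2. 

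PFKFB3 encodes the bifunctional enzyme with the highest kinase over phosphatase activity (chr10:6144934-6254644, plus strand). Its lead region, chr10:6297107-6302233, lay past the end of the gene, 96.6 kb from the canonical start. Fold was 36.6, 85.2 and 54.2 in KIN, 50.2, 97.7 and 14.8 with HIF-2α, and 58.7, 146.0 and 22.2 with HIF-2α/1α. It was 34.6, 45.5 and 14.3 with HIF-1α and 35.3, 61.2 and 23.9 with HIF-1α/2α. Lines overlapped, and the median rank was 1.5%.

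The region at the canonical PFKFB3 start, chr10:6200126-6205986, showed a wider spread between lines. All 15 tagged libraries had a summit 1138 to 1182 bp upstream of the start, and the sequence around it holds a single HRE core 78 bp from the summit. The name PFKFB3 start stands for this region or this summit. The stretch printed here lies upstream of the start and does not reach it.
PFKFB3 start, chr10:6201687-6201887, plus strand: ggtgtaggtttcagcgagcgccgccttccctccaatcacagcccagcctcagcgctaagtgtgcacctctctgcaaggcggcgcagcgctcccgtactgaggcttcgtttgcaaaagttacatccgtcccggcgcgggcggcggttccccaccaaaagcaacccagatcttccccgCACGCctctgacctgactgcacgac
Fold at this summit was 35.9, 80.7 and 48.5 in KIN and 18.0, 13.2 and 13.95 with exogenous HIF-2α, so that these lines did not overlap in fold. It was 47.25, 53.0 and 31.3 with HIF-2α/1α, 32.4, 54.6 and 12.6 with HIF-1α, and 81.4, 98.2 and 53.1 with HIF-1α/2α. In rank, KIN placed it at 5.08%, 1.29% and 2.67% and HIF-2α at 17.3%, 12.3% and 22.6%. Fragments at the summit did overlap, with 56, 159 and 68 in KIN and 29, 97 and 18 in HIF-2α libraries. The local background was 0.589, 0.983 and 0.422 in KIN and 0.666, 6.42 and 0.362 in HIF-2α libraries. Depth was 0.256 to 0.378 in KIN and 0.253 to 0.536 in HIF-2α libraries. The part of background and depth in the fold was not tested.

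PFKFB3 also had annotated starts further upstream. At the best called of these, chr10:6163368-6164542, the summit lay 41 bp past a start and 13 tagged and no WT libraries had a call (adjusted p = 0.12 by Fisher's exact test), with a median fold of 11.2. The regions chr10:6144471-6145266 and chr10:6145842-6146908 were called in 10 and 5 tagged libraries, the first also in WT replicate 2. Inside the gene, chr10:6218806-6220097, 16.4 kb past the start, was called in all tagged and no WT libraries.

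PFKFB4 encodes a further bifunctional enzyme, known as strongly induced by hypoxia (chr3:48517684-48562015, minus strand). Its lead region, chr3:48556818-48558736, has its summit 474 bp upstream of the canonical start. Fold was 7.98, 38.5 and 33.8 in KIN, 30.9, 28.0 and 11.7 with HIF-2α, and 29.0, 42.7 and 24.25 with HIF-2α/1α. It was 21.1, 63.5 and 24.8 with HIF-1α and 36.8, 42.5 and 16.1 with HIF-1α/2α. Lines overlapped, and the median rank was 2.31%. A second start region, chr3:48560290-48562265, was called in 13 tagged libraries with a fold of 4.08 to 13.7.

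By median rank the lead regions came in the order GPI, SLC2A3, SLC2A1, PFKFB3, PFKP, PFKFB4, HK2, PFKL and HK1. Ranges of neighbours in this order overlapped in each case. The number of fragments at the summit behind these values ran from 13 at HK1 to 735 at PFKFB3.

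**Figure D3:**
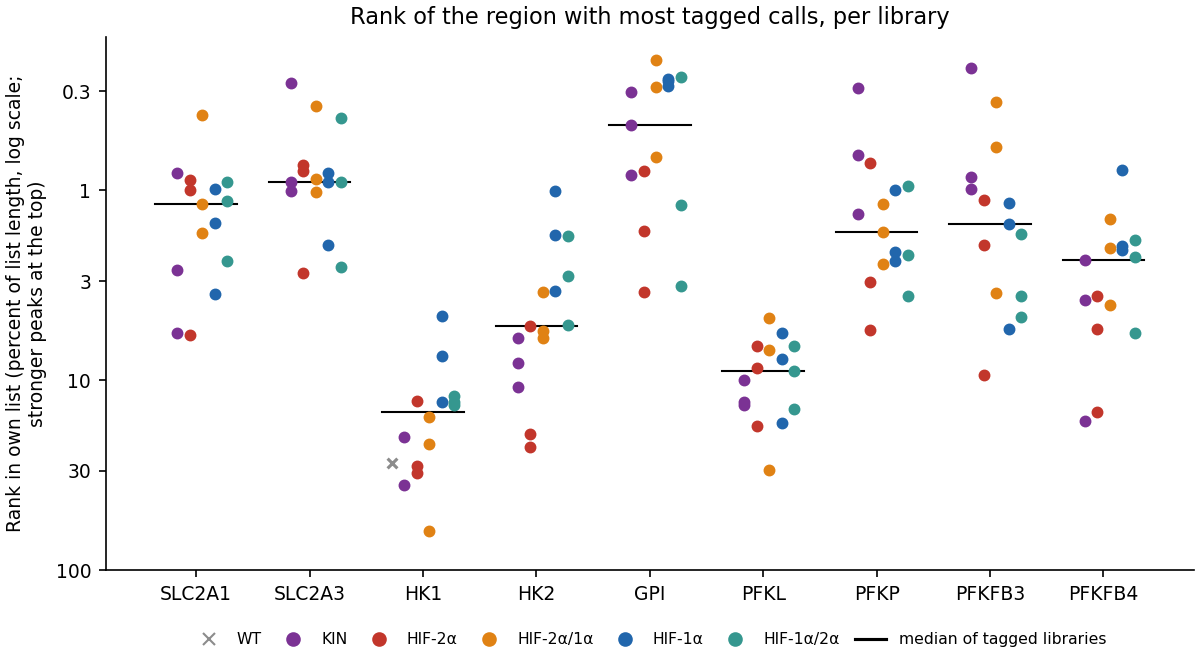
Rank of the lead region of each gene in each library that called it, as a percent of list length. The axis is logarithmic with stronger peaks at the top, WT is drawn as a cross, and medians are of tagged libraries. Points are libraries, coloured by line. GPI lies highest, with a median of 0.451%, and HK1 lowest, with 14.6%.

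**Figure D4:**
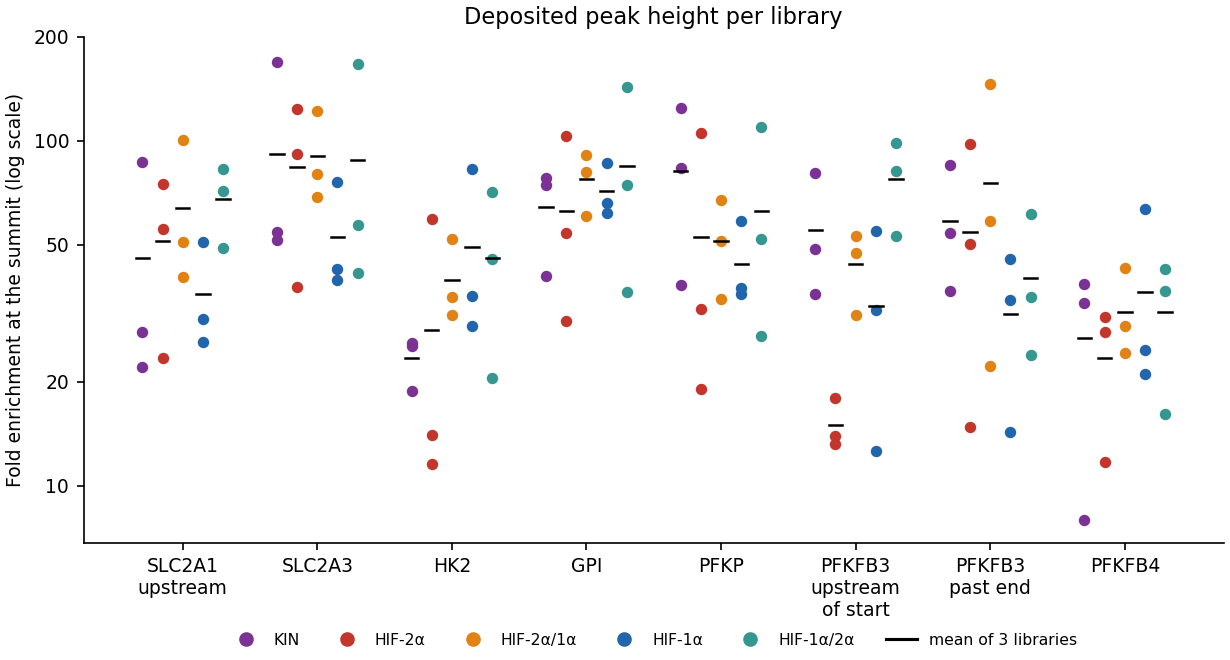
Fold enrichment at the summit (log axis) in each tagged library, with points coloured by line. Shown are the PFKFB3 start and the lead regions of all genes but HK1 and PFKL. At the PFKFB3 start the 3 HIF-2α libraries lie between 13.2 and 18.0 and the 3 KIN libraries between 35.9 and 80.7.

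The next comparison asked whether peak height at these genes goes with the IDR or with the DBD. It used the 4 exogenous lines, with 6 libraries a domain, and log2 fold enrichment at the 1602 regions called in all tagged and in fewer than 2 WT libraries, 20 of them at the 9 genes. Of these 20, limma called none at an adjusted p of 0.05 for the IDR, where 1.44% of all regions were called. It called none for the DBD either, where 2.5% were called, and none for the IDR effect between DBDs, where 0.0% were called. Differences between the HIF-2α and the HIF-1α IDR ran from −0.41 to 0.83 (log2), with 95% interval arms of 0.647 to 0.685. For the DBD they ran from −0.965 to 0.669 with the same arms. With intervals of this width the fit does not show that the domains bind alike. At an unadjusted p under 0.05 there were 4 regions for the IDR (16.85% of all regions), 1 for the DBD (15.8%) and 1 for the IDR effect between DBDs (5.12%).

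The largest IDR value was at SLC2A1, in chr1:42973036-42974009, 14.7 kb upstream of the start, also called in WT replicate 2. There the HIF-2α IDR was 0.83 above the HIF-1α IDR (95% interval 0.164 to 1.5, adjusted p = 0.167 by limma). The largest DBD value was at the PFKFB3 start, where the HIF-2α DBD was −0.965 (−1.61 to −0.318) relative to the HIF-1α DBD, with an adjusted p of 0.0913 by limma. Neither passed.

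**Figure D5:**
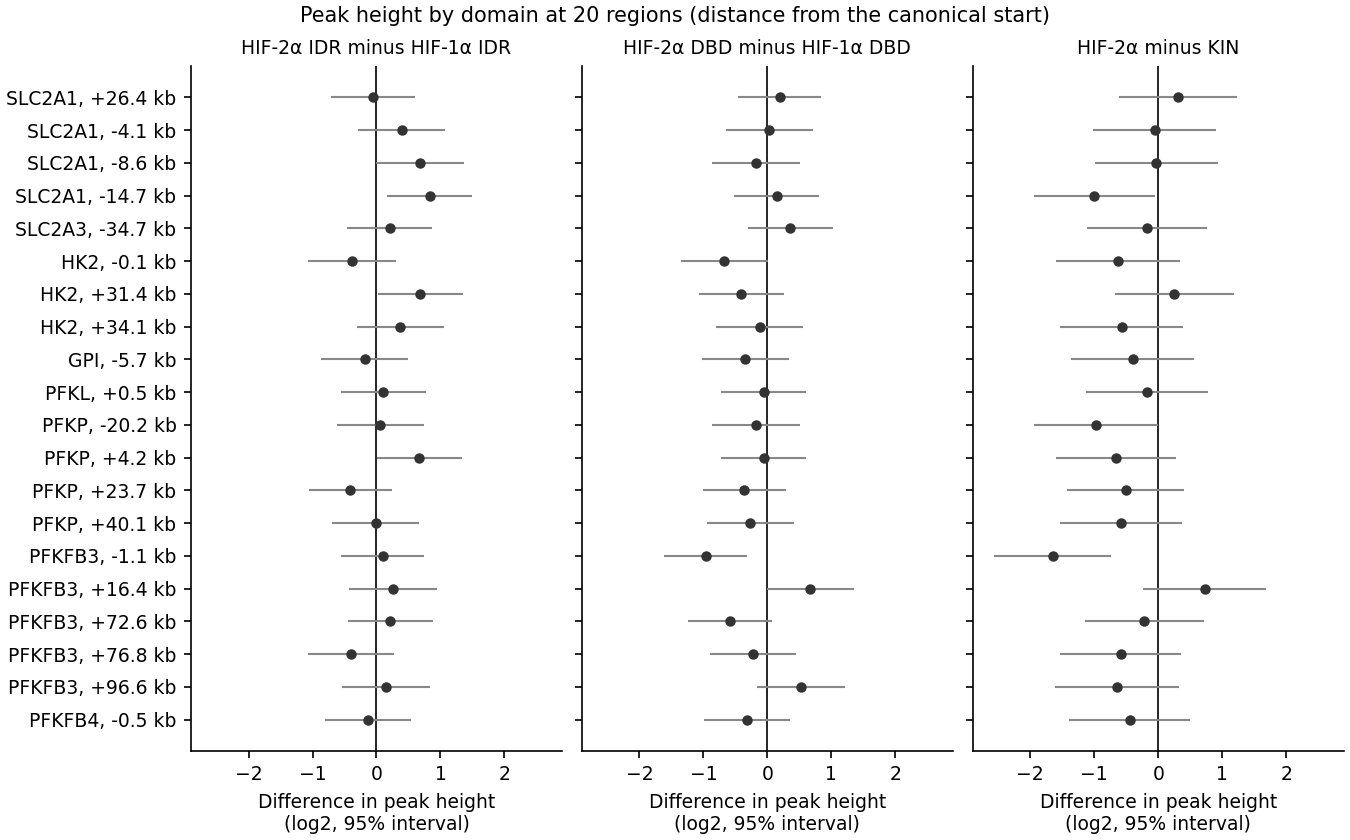
Difference in peak height (log2 fold enrichment) with its 95% interval at the 20 regions, labelled by the distance from the canonical start. Shown are IDR and DBD, each as the HIF-2α domain minus the HIF-1α domain, and exogenous HIF-2α minus KIN. No region passed an adjusted p of 0.05, and the lowest DBD value, −0.965, is that of the PFKFB3 start.

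Between the full-length proteins, HIF-1α minus HIF-2α ran from −0.975 to 1.05 over the 20 regions, and none was called, where 3.06% of all regions were. The highest value was the HK2 start, with 1.05 (95% interval 0.0798 to 2.02, adjusted p = 0.242 by limma), and the lowest the SLC2A1 region 14.7 kb upstream. At the other lead regions fitted, intervals included 0. With exogenous HIF-2α against KIN, 17 of 20 values were below 0, with a median of −0.478 against −0.00647 over all 1602 regions, and none was called, where 0.187% of all regions were. The lowest, at the PFKFB3 start, was −1.65 (−2.56 to −0.733, adjusted p = 0.098 by limma). The 20 regions were measured in the same libraries, several of them at the same gene, and are not independent. KIN is 1 clone with the tag on endogenous HIF-2α. The HIF-2α line expressed its tagged protein from the L30 promoter beside untagged HIF-2α. These differences between the lines cannot be told apart here.

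Whether this PFKFB3 difference was called depended on the setting. In the same regions it passed with median centring in place of quantile normalisation, at −1.94 (adjusted p = 0.0147 by limma), and with −log10 p as the height, at −2.13 (adjusted p = 0.000269 by limma). It did not pass with regions called in at least 2 of 3 libraries a line (−1.61, adjusted p = 0.159) or with the replicate block (−1.65, adjusted p = 0.0723). In HIF-2α replicate 2 and HIF-1α replicate 3 the strongest summit of the region is not the one described above. When peaks were joined by summits within 200 bp, a choice made after seeing the values, the difference was −1.98 (−2.93 to −1.02, adjusted p = 0.0471 by limma), and 0.21% of all 1427 regions were called.

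Calls were also compared by domain, 6 libraries against 6. By Fisher's exact test no region, among 81 at the 9 genes and 25285 in all, passed an adjusted p of 0.05. The smallest p that 6 against 6 libraries can give is 0.00217, so that a region could pass only if many reached it. The lack of calls thus does not show that calls are alike by domain. At an unadjusted p under 0.05 there was 1 region by IDR, where 1.41% of all regions were called at this level, and 1 by DBD, against 0.562%. The first was chr10:3043328-3044366, 23.55 kb upstream of PFKP, called in 5 of 6 libraries with the HIF-2α IDR and 0 of 6 with the HIF-1α IDR (exact p = 0.0152). The second was chr1:42971864-42972297, upstream of SLC2A1, called in 5 of 6 libraries with the HIF-2α DBD, 0 of 6 with the HIF-1α DBD and 2 of 3 KIN libraries (exact p = 0.0152). For the IDR, 1 of 81 is near the share over all regions. Libraries with the HIF-1α IDR had 12371 to 20808 peaks and those with the HIF-2α IDR 5906 to 20651.

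Other genes of the same pathway give the setting. Of 20 further genes of glucose transport, phosphorylation and its reversal, and of fructose-6-phosphate turnover, 1 had a region in all tagged and no WT libraries within 50 kb, and none within 1 kb of a start. The 1 gene was GCKR, the regulator of glucokinase, named here after its value was seen. SLC2A4 and G6PC3 had a region with 14 tagged calls in their windows. SLC2A14 and HKDC1 had one too, but these are the SLC2A3 promoter region, which lies in both windows, and the HK1 lead region. The latter counts for HKDC1 only through a weaker peak, since its strongest summits lie outside the HKDC1 window. PFKM, the muscle form of phosphofructokinase, had no peak in any list. No test was made between the 9 genes and these 20, since both lists were chosen with earlier results of these data known.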

How the data were processed

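Binding was measured by Cut&Run with an anti-V5 antibody in 18 libraries of 6 lines, each with an IgG library. The authors aligned reads to hg38 with bowtie2 2.3.4.1, called peaks with MACS2 in each library against its matched IgG control, did not pool replicates, and removed blacklisted regions with bedtools 2.28.0. The deposited lists give the fold enrichment (a ratio) at each summit, and the authors' −log10 p-value and −log10 q-value. Depth, in fragments per base, was recovered from fold and −log10 p. Genes and starts came from GENCODE release 44.

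Peaks overlapping by at least 1 bp were joined, and joined regions seen in 2 or more libraries were kept. Calls were compared by two-sided Fisher's exact test, with Benjamini-Hochberg adjustment over all regions tested. Heights were log2 fold values, quantile normalised and fitted with limma 3.58.1 (R 4.3.3) over all 1602 regions called in 15 tagged and fewer than 2 WT libraries. Ranks were by −log10 p within a list. HRE and AP-1 letters were searched around median summits. Python 3.11.15 with SciPy 1.17.1 and pandas 2.3.3 was used. The exact tests, the adjustment, the depth step and the limma fit by IDR were tested on simulated data, and the other steps were not. The regions described by rule were the one with most tagged calls per gene and those with a summit within 1 kb of its starts. Other regions were described outside this rule, among them regions called in all tagged and no WT libraries. These include the region that spans the canonical PFKFB3 start, whose median summit lies 1079 bp from the nearest start. The 9 genes and the list of other genes were chosen with earlier results of these data known. Alternatives were another threshold or list length, other joining, centring or height measures, a replicate block and each library left out.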

Additional observations from a re-analysis of the deposited data

How the results depend on the processing

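Calls of tagged against WT need all 3 WT libraries, since 15 against 2 libraries cannot give a p under 0.00735 by Fisher's exact test. The loss of all calls without 1 WT library therefore says nothing about the values of that library. Over all regions 0 to 1611 passed when 1 library was left out, and 0 to 17 at the 9 genes. The count was 0 without any 1 WT library, 1611 without KIN replicate 1 (all regions) and 17 without HIF-2α replicate 3 (the 9 genes). Deviations from the line means of same-numbered libraries correlated at 0.058 on average, with 28 of 30 pairs above 0 and 4 over 0.1, and those of other numbers at −0.029. Since not every pair exceeded 0.1 and the labels name no batch, the numbers were not taken to pair the samples. With a replicate block 0 of all regions and 0 at the 9 genes passed. Genes with a region in all tagged and no WT libraries numbered 4 to 5 within 1 kb of a start and 8 to 8 within 50 kb with 1 library left out, and 7 within 5 kb of a start. With regions joined by summits, added after seeing the data, PFKL was lost and they numbered 3 within 1 kb and 7 within 50 kb.

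Peak heights called over all regions by IDR were 36 with median centring, 394 with −log10 p as the height, 56 with regions called in at least 2 of 3 libraries a line, 56 with a replicate block, and 7 to 46 with 1 library left out. By DBD they were 238 with −log10 p, 86 with at least 2 of 3 libraries, and 28 to 60 with 1 library left out. For the IDR effect between DBDs the range was 0 to 1. For HIF-1α against HIF-2α they were 371, 102 and 31 to 73. For HIF-2α against KIN they were 9 with median centring, 135 with −log10 p and 0 to 4 with 1 library left out.

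At the 9 genes every leave-one-out count of heights was 0, as was that of calls by domain. For these calls even 6 against 6 libraries cannot give a p under 0.00217 by Fisher's exact test, which leaves little room for another count. With −log10 p as the height, which by construction rises with depth, more of the 20 regions were called. There were 2 by IDR (SLC2A1 14.7 kb upstream, 1.16) and 4 by DBD (PFKFB3 start, −1.24). Of these 4, 1 went the other way (PFKFB3 16.4 kb past the start, 0.995). There were 3 for HIF-1α against HIF-2α (HK2 start, 1.54) and 1 for HIF-2α against KIN (PFKFB3 start, −2.13). Of all 1602 regions this measure called 394 by IDR, 238 by DBD and 371 for HIF-1α against HIF-2α. Median centring called 1 region for HIF-2α against KIN (PFKFB3 start, −1.94), as did joining by summits. The cause was not tested. An HRE core was found in 8 lead regions with 201 bases and in 9 over the whole region. The shares were 45.5% and 76.0% of all regions. They were 69.4% and 97.9% of the 1201 regions called in all tagged and no WT libraries. The median length was 3474 bp for lead regions, 680 bp over all regions and 1606 bp over the 1201.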
